A study of Homo sapiens with 2 samples.

Results

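The genes described here encode the factors that start, extend and end cytosolic protein synthesis, together with the 4E-binding proteins that hold initiation in check. A gene was a member when the symbol of its probe set began with EIF or EEF and a digit, leaving out EIF2AK2 and pseudogenes, or when it was ETF1, GSPT1, GSPT2, PABPC1, PABPC4 or PAIP1. The rule found 38 of the 14884 named genes, and a gene with more than 1 probe set was read by its brightest one, judged on the average of both arrays. The rule reads symbols and uses no measured value, but the set was chosen with earlier results of these data known. By the letter of the rule 3 members are transcripts named after a factor gene: the long noncoding RNAs EIF1B-AS1 and EIF3J-DT and the readthrough transcript EEF1AKMT4-ECE2.

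The samples were HT1080 cells, an established human fibrosarcoma line. One array held RNA of cells given virus with an shRNA (a short hairpin RNA that directs degradation of a matching messenger RNA) against cMyc, and the other held RNA of cells given a non-targeting control shRNA. Both cultures were harvested 48 hours after infection and were read on Affymetrix Human Gene 2.0 ST arrays. There was 1 array per group, so no test was possible, and culture, infection and array cannot be told apart from the shRNA. In RNA from whole cultures, fewer cells of one state and less RNA per cell cannot be told apart either.

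Translation initiation begins when the cap-binding protein eIF4E, held in a complex with the scaffold eIF4G and the helicase eIF4A, recruits the small ribosomal subunit to the 5′ cap of a messenger RNA. The 4E-binding proteins compete with eIF4G for eIF4E, and the kinase mTOR releases that block by phosphorylating them. Elongation depends on eEF1A, which brings aminoacyl-tRNA, and on eEF2, which moves the ribosome along, and the kinase eEF2K switches eEF2 off. MYC is known as a driver of ribosome and translation factor genes in growing cells, and EIF4E is among its long-described targets.

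Values are log2 expression levels of probe sets, and each difference is the cMyc shRNA level minus the control shRNA level of that probe set. A gene counted as measured when it averaged at least 3.70 over both arrays, the middle value of all 53617 probe sets. A total of 37 members passed, each with both arrays at or above that level, and EIF1B-AS1 did not (3.15 on the cMyc shRNA array and 3.01 on the control array). The spread between repeat cultures is unknown. The nearest available error is technical: the log2 difference of 1 probe set had an SD of 0.34, judged from 416 genes that were read by at least 2 measured probe sets. With pairs of probe sets less than 0.1 apart in mean level left out, the SD was 0.37, from 337 genes. The value of 0.34 is used below. The arrays had medians of 3.73 (cMyc shRNA) and 3.68 (control) and correlated across all probe sets with r = 0.973. MYC, the target, read 6.16 on the cMyc shRNA array and 7.09 on the control array, a difference of -0.93. Of 11 genes listed as mesenchymal, NRAS among them, 4 were named and measured. On the cMyc shRNA array these read 12.6 (FN1), 9.34 (VIM), 7.05 (S100A6) and 4.86 (THY1). Their levels on the control array were 12.4 (FN1), 9.94 (VIM), 7.66 (S100A6) and 4.50 (THY1). Of 6 epithelial markers 5 were named and 4 measured, and these read 8.41 (KRT18), 4.62 (KRT8), 3.85 (KRT19) and 5.15 (CLDN7) on the cMyc shRNA array and 9.09 (KRT18), 5.30 (KRT8), 4.31 (KRT19) and 4.62 (CLDN7) on the control array, with EPCAM below the level filter. Of 5 haematopoietic markers CD68 was measured, at 11.3 on the cMyc shRNA array and 10.4 on the control array, and CD14 was below the filter. The part of these markers in the members' differences was not tested.

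The 4E-BP gene EIF4EBP1 had the lowest difference among the members, 4.09-fold lower with cMyc shRNA, while its relative EIF4EBP2 had the highest, 1.69-fold higher. The eEF2 kinase gene EEF2K had the second lowest difference, 2.33-fold lower. A total of 29 of the 37 measured members (78.4%) had a difference below 0, against 51.3% of all 10258 measured genes, and their median was -0.26, against -0.01 over all measured genes. The 2-fold rule took 2 members (5.41%) as lower, close to the background of 4.00%, and 0 as higher (background 2.01%). At 1.5-fold, 8 members (21.6%) were lower against a background of 11.9%, and 2 members (5.41%) were higher against 8.77%. A total of 21 members (56.8%) lay closer to 0 than the technical SD, against 56.5% of all measured genes.

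**Figure D1:**
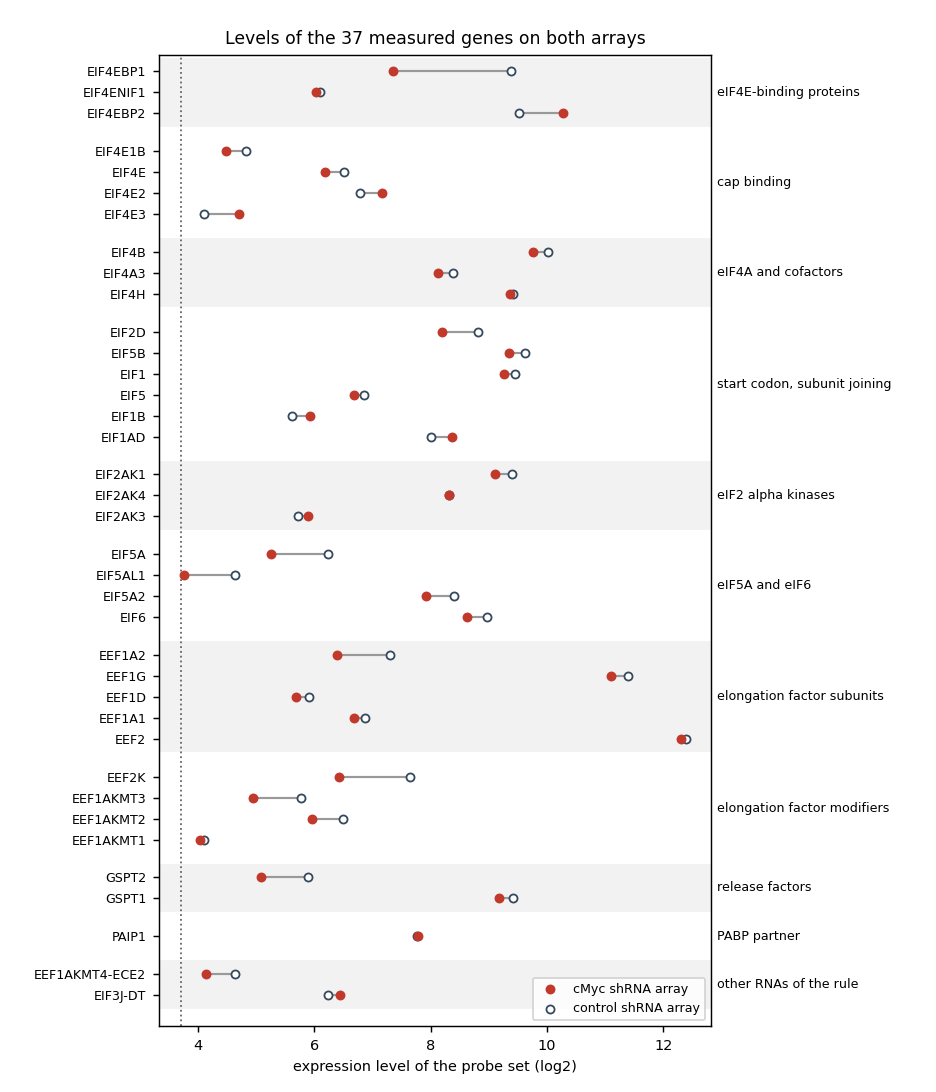
Log2 level of each of the 37 measured members on the cMyc shRNA array (filled red) and the control array (open), grouped by role, 1 probe set per gene. The dotted line is the level filter at 3.70. EIF4EBP1 (7.35 with cMyc shRNA and 9.38 with control shRNA) has the longest gap, and EIF4EBP2 (10.3 with cMyc shRNA and 9.52 with control shRNA) runs the other way.

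The members were brighter than most genes, with a median level of 6.97 against 6.03 over all measured genes. Among genes at or above the 75th percentile of level (5.58), 23 of 30 members were below 0 with a median of -0.24, against 54.2% and a median of -0.05 for all 6018 genes there. At 1.5-fold, 5 of these 30 members (16.7%) were lower, near the 14.6% of all genes at that level. Only 1 of them (3.33%) was higher, against 9.01%. In the members' roles, 23 genes were pooled as initiation, with 17 below 0 and a median of -0.26. Of these, 13 lay closer to 0 than the technical SD. The pool also took the eIF5A genes, EIF4A3, EIF1AD, the eIF2 alpha kinases and the 4E-binding proteins, so it is wider than initiation itself. The 11 genes of elongation factors, their modifiers and release factors were all below 0, with a median of -0.29. Of these, 6 lay closer to 0 than the technical SD.

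**Figure D2:**
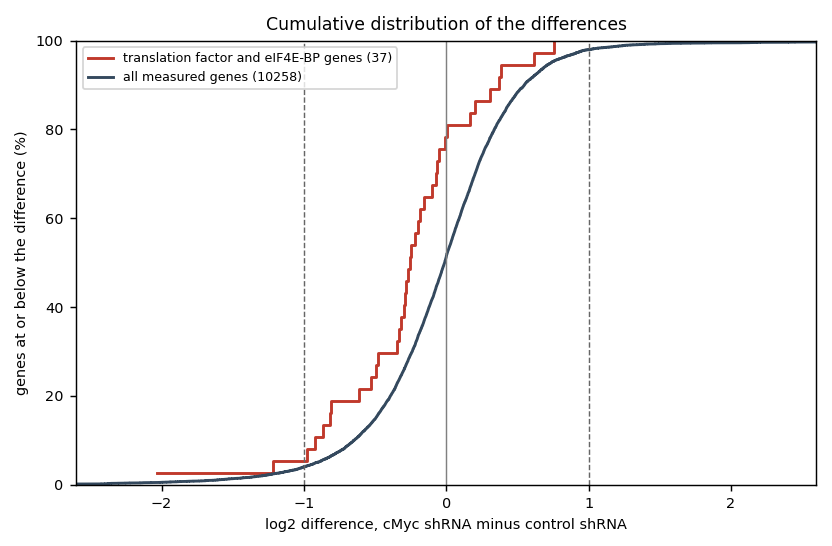
Share of genes at or below each log2 difference, for the 37 measured members (red) and all 10258 measured genes (dark blue), with dashed lines at 2-fold and the axis limited to the central range. The members' curve lies left of the other near 0, where 78.4% of members against 51.3% of all measured genes are below 0.

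As a description of sequence beside these values, the promoters of the members were searched for CACGTG, the canonical E-box that MYC and its partner MAX bind. The windows were RefSeq's, of GRCh38.p14, with 250 bases before and 50 after a gene's annotated start, and the motif is its own reverse complement, so one search covers both strands. A window was found for 32 of the 38 members (not for EEF1A2, EEF1AKMT1, EEF1AKMT3, EEF1D, EIF2AK1 and EIF4EBP1), and 9 of those (28.1%) held the motif in at least 1 window, against 8.77% of all 27305 genes with a window. Set against measured protein-coding genes only, the shares were 8 of 30 members (26.7%) and 12.4% of 7453 genes. Leaving out EIF1B-AS1, which is below the level filter, the 8 measured members with the motif had a median log2 difference of -0.29 with 7 below 0, and the 23 without it had a median of -0.18 with 16 below 0. The differences of both sets overlapped, running between -1.22 and 0.31 with the motif and between -0.98 and 0.76 without it. Besides EEF2K, EIF4E and EIF5A2, the measured members with the motif were EIF1B (0.31), EIF4H (-0.05), EIF4A3 (-0.26), EIF4B (-0.27) and EEF1AKMT4-ECE2 (-0.50). The windows of EIF5A (-0.98), EIF5AL1 (-0.87) and GSPT2 (-0.82) held none. EIF1B and EIF1B-AS1 lie on opposite strands of chromosome 3 with overlapping windows, and each counted as a member with the motif. A single site may therefore have been counted for both. Shown are the 250 bases before the start for the member with the lowest difference among those with a window (EEF2K), the member with the highest difference (EIF4EBP2), and the 2 factor genes with a pair of motifs, EIF4E and EIF5A2, with CACGTG in capitals and the rest in lower case.
EEF2K, chr16:22206028-22206277, plus strand: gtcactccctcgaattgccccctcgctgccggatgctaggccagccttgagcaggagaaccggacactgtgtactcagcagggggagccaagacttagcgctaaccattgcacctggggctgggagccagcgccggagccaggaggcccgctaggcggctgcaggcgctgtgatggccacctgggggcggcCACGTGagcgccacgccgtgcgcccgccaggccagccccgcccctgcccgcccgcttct
EIF4EBP2, chr10:70403895-70404144, plus strand: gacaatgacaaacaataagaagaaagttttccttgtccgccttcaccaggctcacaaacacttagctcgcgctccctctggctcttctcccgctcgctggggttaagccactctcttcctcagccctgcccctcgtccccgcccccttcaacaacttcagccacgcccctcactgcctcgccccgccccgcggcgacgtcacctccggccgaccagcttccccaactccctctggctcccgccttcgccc
EIF4E, chr4:98929134-98929383, minus strand: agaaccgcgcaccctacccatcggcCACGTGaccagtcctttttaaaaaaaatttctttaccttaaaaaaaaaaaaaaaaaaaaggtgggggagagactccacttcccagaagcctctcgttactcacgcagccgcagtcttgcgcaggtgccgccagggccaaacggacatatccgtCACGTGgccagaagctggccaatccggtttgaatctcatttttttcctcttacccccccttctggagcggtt
EIF5A2, chr3:170908638-170908887, minus strand: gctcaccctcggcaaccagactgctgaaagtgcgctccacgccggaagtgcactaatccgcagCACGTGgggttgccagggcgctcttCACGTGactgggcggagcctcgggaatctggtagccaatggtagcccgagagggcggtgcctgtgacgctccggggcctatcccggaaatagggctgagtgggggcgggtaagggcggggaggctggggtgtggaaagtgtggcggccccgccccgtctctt
The motif of EEF2K began at position -59 from the start, those of EIF4E at -225 and -72, and those of EIF5A2 at -187 and -162. The EIF4EBP2 window held none.

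**Figure D3:**
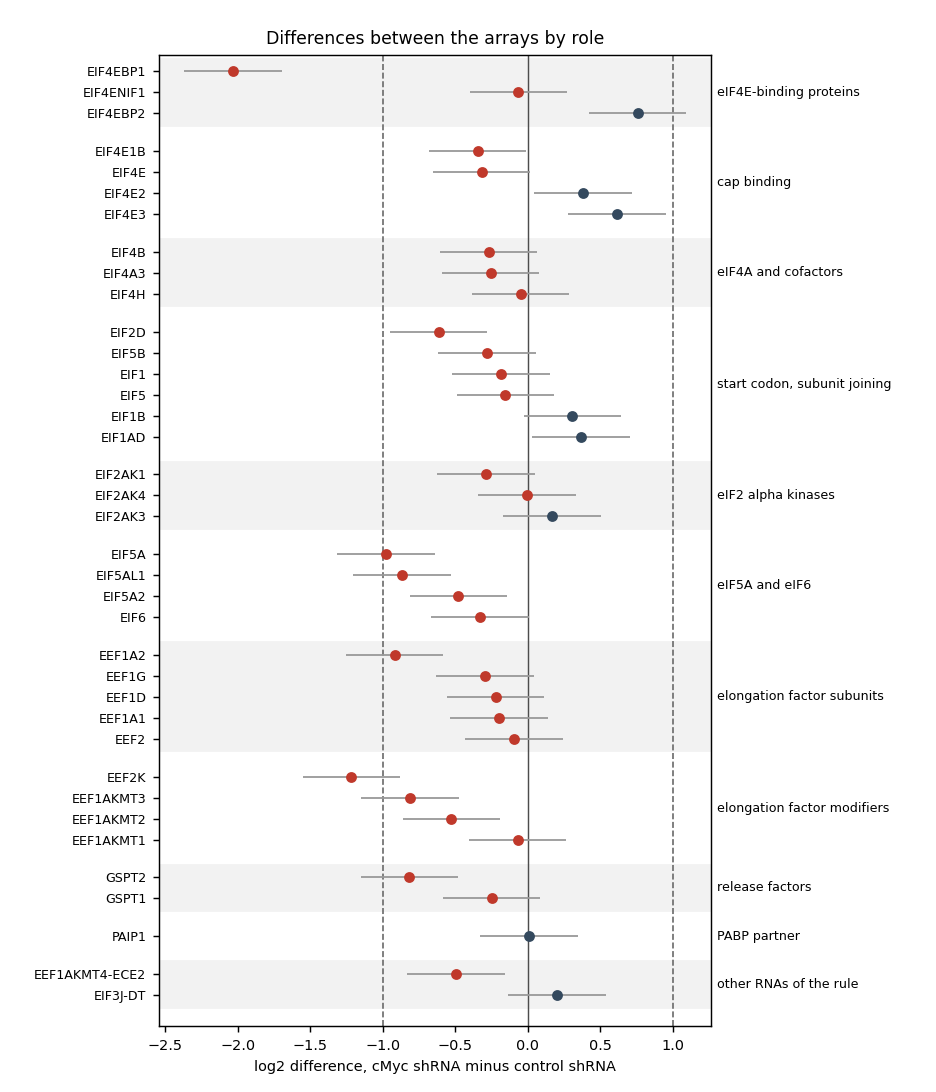
Log2 difference, cMyc shRNA minus control shRNA, of each measured member, red below 0 and dark blue above 0, with bars of 1 technical SD (0.34) on each side and dashed lines at 2-fold. EIF4EBP1 (-2.03) and EEF2K (-1.22) lie beyond the lower line and no member lies beyond the upper one.

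The genes of the 2 main 4E-binding proteins differed in opposite directions. EIF4EBP1 (probe set 17067963) read 7.35 on the cMyc shRNA array and 9.38 on the control array, a difference of -2.03, or 4.09-fold lower. Within 1 technical SD that fold runs between 3.24-fold and 5.17-fold lower, and 46 of the 10258 measured genes had a lower difference. EIF4EBP1 encodes the best-studied 4E-BP, which mTOR phosphorylates, and its difference was larger than that of MYC itself. EIF4EBP2 (probe set 16705715), which encodes the second 4E-BP, read 10.3 on the cMyc shRNA array and 9.52 on the control array, a difference of 0.76 that 470 measured genes exceeded. The differences of the pair lay 2.79 apart, a 6.91-fold change of EIF4EBP2 relative to EIF4EBP1, against a technical SD of 0.48 for such a gap. This was the widest gap among the 7 sets of paralogs with 2 or more measured genes. EIF4ENIF1, which encodes 4E-T, a transporter and repressor that binds eIF4E by the same kind of site, read 6.03 with cMyc shRNA and 6.10 with control shRNA and differed by -0.07.

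Among the cap-binding proteins, the canonical gene and EIF4E1B were below 0 and 2 other relatives were above it. EIF4E, whose promoter with a pair of E-boxes is shown above, read 6.19 on the cMyc shRNA array and 6.51 on the control array, a difference of -0.32 that is within the technical SD. EIF4E1B, a form known mainly from oocytes, was dim on both arrays (4.49 with cMyc shRNA and 4.83 with control shRNA) and differed by -0.35. EIF4E2, or 4EHP, binds the cap without recruiting eIF4G and represses translation, and it read 7.16 with cMyc shRNA and 6.78 with control shRNA, a difference of 0.38. EIF4E3, an atypical cap-binding relative, was also dim on both arrays, at 4.71 with cMyc shRNA and 4.10 with control shRNA. Its level lay below the 75th percentile (5.58). Its difference of 0.62 (1.53-fold higher) was the second highest among the members. EIF4E3 and EIF4E lay 0.93 apart, beside 0.72 for EEF1A1 and EEF1A2 and 0.57 for GSPT1 and GSPT2.

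The 3 measured genes of the eIF4A helicase and its partners lay within the technical SD of 0. EIF4B, which stimulates the helicase, read 9.75 on the cMyc shRNA array and 10.02 on the control array (-0.27), and its dimmer probe set read 6.07 with cMyc shRNA and 6.80 with control shRNA (-0.73), so both pointed the same way with unlike sizes. EIF4H, a smaller cofactor of the helicase, read 9.37 with cMyc shRNA and 9.42 with control shRNA (-0.05). EIF4A3, a helicase of the exon junction complex rather than of initiation, read 8.12 with cMyc shRNA and 8.38 with control shRNA, a difference of -0.26.

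Factors that choose the start codon and join the subunits had 4 of 6 measured genes below 0 and a median of -0.17. EIF2D, which can deliver initiator tRNA and acts in ribosome recycling, had the lowest difference, with levels of 8.20 on the cMyc shRNA array and 8.81 on the control array (-0.62, 1.53-fold lower). EIF1, the guardian of start codon fidelity, read 9.26 with cMyc shRNA and 9.45 with control shRNA (-0.18), while its paralog EIF1B read 5.92 with cMyc shRNA and 5.61 with control shRNA (0.31). The gap of 0.49 was near the technical SD of 0.48 for such a gap. EIF1AD, a nuclear protein with an eIF1A-like domain, had the highest difference of the group, with levels of 8.369 with cMyc shRNA and 8.002 with control shRNA (0.37). EIF5, the GTPase activator of eIF2 (-0.15), and EIF5B, the GTPase of subunit joining (-0.28), lay between these.

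The 3 kinases of the rule that phosphorylate eIF2 alpha under stress lay within the technical SD of 0. EIF2AK1, the haem-regulated kinase HRI, read 9.10 on the cMyc shRNA array and 9.39 on the control array (-0.29). EIF2AK3, the endoplasmic reticulum kinase PERK, read 5.89 with cMyc shRNA and 5.72 with control shRNA (0.17). EIF2AK4, the amino acid sensor GCN2, read 8.31 with cMyc shRNA and 8.32 with control shRNA (-0.01). The fourth kinase, EIF2AK2 or PKR, is an interferon-induced sensor of double-stranded RNA outside the rule, and it read 10.3 on the cMyc shRNA array and 8.21 on the control array, 4.35-fold higher.

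All 4 measured genes of eIF5A and eIF6 were below 0, with a median of -0.67. eIF5A helps ribosomes through difficult peptide bonds and is the protein that carries hypusine, a modification made from the polyamine spermidine. EIF5A (probe set 16830360) read 5.26 on the cMyc shRNA array and 6.24 on the control array, a difference of -0.98 (1.97-fold lower), just inside 2-fold. This probe set was dimmer than that of EIF5A2, and how well it reads the gene's transcripts was not tested. EIF5AL1, an EIF5A-like copy, read 3.76 with cMyc shRNA, near the level filter, and 4.63 with control shRNA (-0.87). Its sequence is nearly that of EIF5A, so the probes of either gene may read both. EIF5A and EIF5AL1 were counted as separate members in all counts and medians, though they may not be independent readings. EIF5A2, the second isoform gene, with a pair of E-boxes in its promoter, read 7.93 with cMyc shRNA and 8.41 with control shRNA (-0.48). The windows of EIF5A and EIF5AL1, with lower differences, held no E-box. EIF6, which keeps large ribosomal subunits from joining too early, read 8.63 with cMyc shRNA and 8.96 with control shRNA (-0.33).

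All 5 measured elongation factor genes were below 0 with a median of -0.22, and EEF1A2 lay farthest from it. EEF2, the translocase, was the brightest member at 12.3 on the cMyc shRNA array and 12.4 on the control array (-0.10). EEF1A1, the general tRNA carrier, read 6.67 with cMyc shRNA and 6.87 with control shRNA (-0.20). Its only named probe set was far dimmer than those of EEF2 and EEF1G, and how well it reads the gene's transcripts was not tested. EEF1A2, its paralog known from muscle and neurons and often raised in tumours, read 6.38 on the cMyc shRNA array and 7.30 on the control array, a difference of -0.92 (1.89-fold lower). EEF1D, a subunit of the exchange factor of eEF1A, read 5.69 with cMyc shRNA and 5.91 with control shRNA (-0.22). EEF1G, another subunit, read 11.1 with cMyc shRNA and 11.4 with control shRNA (-0.29), and its dimmer probe set read 8.19 with cMyc shRNA and 8.26 with control shRNA (-0.07).

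The 4 measured genes whose products modify the elongation factors were also all below 0, with a median of -0.67. EEF2K (probe set 16816813), the kinase that inhibits eEF2, read 6.42 on the cMyc shRNA array and 7.64 on the control array, a difference of -1.22. Within 1 technical SD the fold runs between 1.84-fold and 2.94-fold lower, and 245 measured genes had a lower difference. Its window above holds 1 E-box. EEF1AKMT3, a lysine methyltransferase of eEF1A, read 4.95 with cMyc shRNA and 5.76 with control shRNA (-0.81, 1.76-fold lower). EEF1AKMT2, another methyltransferase of eEF1A, read 5.96 with cMyc shRNA and 6.49 with control shRNA (-0.53), and EEF1AKMT1 read 4.04 with cMyc shRNA and 4.11 with control shRNA (-0.07), near the level filter.

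Termination was represented by both genes of the release factor GTPase eRF3. GSPT1, the widely expressed form eRF3a, read 9.17 on the cMyc shRNA array and 9.42 on the control array (-0.25). GSPT2, the form eRF3b, read 5.08 with cMyc shRNA and 5.90 with control shRNA (-0.82, 1.76-fold lower). PAIP1, which binds the poly(A)-binding protein and stimulates initiation, read 7.78 with cMyc shRNA and 7.77 with control shRNA (0.01). Of the transcripts named after factor genes, EEF1AKMT4-ECE2 read 4.13 with cMyc shRNA and 4.63 with control shRNA (-0.50), and EIF3J-DT, a divergent noncoding transcript, read 6.44 with cMyc shRNA and 6.24 with control shRNA (0.20).

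Messenger RNAs that begin with a terminal oligopyrimidine (TOP) tract, a C at the start followed by pyrimidines, are translated under mTOR control and include many elongation factors. Of 11 factor genes listed as TOP messenger RNAs, 5 were measured: EEF1A1, EEF1D, EEF1G, EEF2 and EIF4B. Their differences ran between -0.29 and -0.10, with a median of -0.22, and all 5 lay within the technical SD. In the RefSeq windows a C followed by at least 4 pyrimidines stood at the start of 4 of 30 measured protein-coding members (EEF1A1, EEF2, EIF4B and EIF2D), against 7.08% of the 7453 measured protein-coding genes. The search read only the annotated start. It missed EEF1G, which is among the listed TOP genes, and EEF1D had no window.

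Regulators of translation outside the rule were described from a list of 61 genes, of which 37 were measured. Their median was -0.07, with 19 below 0, and 5 (13.5%) lay beyond 1.5-fold downward and 4 (10.8%) upward, near the backgrounds of 11.9% and 8.77%. Upstream of the 4E-BPs, genes that restrain mTOR differed in both directions. SESN2, a sestrin that restrains mTOR when amino acids are short, read 8.01 on the cMyc shRNA array and 7.08 on the control array (0.94). TSC1, a subunit of the complex that inhibits the mTOR activator RHEB, read 8.06 with cMyc shRNA and 7.33 with control shRNA (0.73), and its partner TSC2 differed by 0.16. DDIT4, or REDD1, another inhibitor of mTOR, ran the other way at 5.48 with cMyc shRNA and 6.53 with control shRNA (-1.05), and the kinase AKT1, upstream of mTOR, read 5.32 with cMyc shRNA and 6.14 with control shRNA (-0.82). MTOR itself differed by -0.15, RHEB by -0.33 and AKT1S1, of the same list, by -0.44. In this list of mTOR signalling, 5 of 8 measured genes were below 0, with a median of -0.24. Of these 8, 3 lay closer to 0 than the technical SD.

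Among regulators of the cap complex, 5 of 6 measured genes were above 0, with a median of 0.19. Of these 6, 4 lay closer to 0 than the technical SD, and 4977 of all 10258 measured genes were above 0. The list holds eIF4E kinases as well as inhibitors, so a shared direction has no single meaning. PAIP2, which opposes the poly(A)-binding protein, had the highest difference, with levels of 7.92 on the cMyc shRNA array and 7.13 on the control array (0.79). The list of hypusine and diphthamide synthesis, which modify eIF5A and eEF2, had 6 of 7 measured genes below 0 and a median of -0.35. Of these 7, 2 lay closer to 0 than the technical SD, and 51.3% of all measured genes were below 0. DPH5, a diphthamide enzyme, had the lowest difference of the list, with levels of 4.32 with cMyc shRNA and 5.01 with control shRNA (-0.68). DPH6 lay above 0 at 0.40. The hypusine enzymes DHPS (-0.35) and DOHH (-0.55) lay on the same side of 0 as EIF5A. In recycling and rescue of stalled ribosomes, NEMF, of the quality control complex that marks stalled chains, read 8.03 with cMyc shRNA and 7.35 with control shRNA (0.68). ZNF598, the ubiquitin ligase that senses collided ribosomes, read 6.46 on the cMyc shRNA array and 7.18 on the control array (-0.72). MTRF1, a mitochondrial member of the release factor family, read 6.25 with cMyc shRNA and 7.06 with control shRNA (-0.80), and the other 4 measured mitochondrial factors were within 1.5-fold. The control of eIF2 phosphorylation had 3 measured genes between -0.34 (ATF4) and 0.33 (IMPACT). In the list of RNA helicases, DHX29 differed by -0.29, DDX6 by 0.21 and DHX36 by 0.53.

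**Figure D4:**
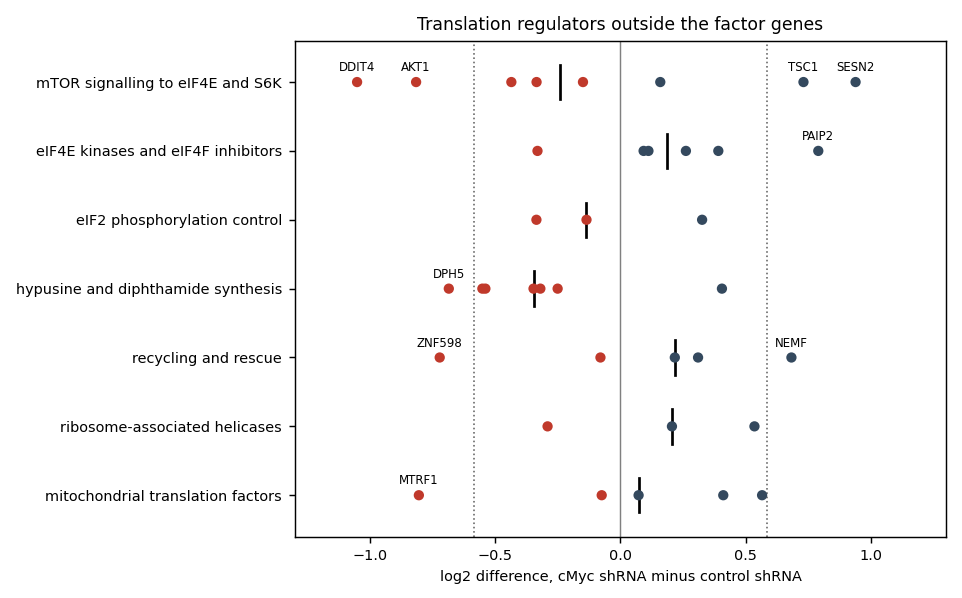
Log2 difference, cMyc shRNA minus control shRNA, of the 37 measured regulators outside the rule by list, red below 0 and dark blue above 0, with black ticks at each list's median and dotted lines at 1.5-fold. Named points are beyond 1.5-fold, from DDIT4 (-1.05) to SESN2 (0.94).

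The members described cover part of the machinery. Of 76 factor genes sorted into roles, 41 are not analysed here, among them every listed subunit of eIF2, eIF2B and eIF3, the eIF4G scaffolds, EIF4A1, EIF4A2, EIF4EBP3, ETF1 and the poly(A)-binding proteins. The counts and medians therefore do not describe those complexes.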

How the data were processed

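RNA of 2 HT1080 cultures was read on 1 array each. The authors deposited log2 expression values per probe set, made with Affymetrix Expression Console, per the submitters' processing notes. For its version, background correction and normalization the sources used here give nothing. Base 2 was inferred from the range of the values, 1.41 to 13.9, so folds rest on it. No scanner intensities or detection calls were used, and having 2 arrays limits the precision.

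Gene symbols came from GEO's platform annotation, which named 16098 of 53617 probe sets. All 38 member symbols matched RefSeq (GRCh38.p14), which gave biotypes and promoters. Values were used as deposited. Members, role lists and the list of regulators were chosen with earlier results of these data known. Genes named in the text were the highest and lowest of each role, all members of small roles, paralogs, and genes beyond 1.5-fold. Others are named to account for every member. The role of transcripts named after a factor gene was added after seeing the data.

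Calculations used Python 3.11.15, with pandas 2.3.3, statsmodels 0.14.6 and numpy 2.4.6, and were tested on simulated data. Alternatives were 3 scalings, 2 filters on level, the mean of a gene's probe sets, and 1.5-fold as the size rule.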

Additional observations from a re-analysis of the deposited data

How the results depend on the processing

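Under median centring, quantile normalization and loess on the mean level, the members' median lay between -0.30 and -0.20, and with no level filter, a filter at the 75th percentile or the mean over probe sets it lay between -0.25 and -0.24. Over these 6 alternatives between 2 and 3 members passed 2-fold downward and 0 passed it upward. The additional gene under median centring was EIF5A, at -1.02. At 1.5-fold in place of 2-fold, 8 members were lower and 2 higher, by construction. EIF4EBP1 stayed between -2.08 and -1.99, EEF2K between -1.26 and -1.17 and EIF4EBP2 between 0.71 and 0.81. Level filters cannot move the difference of a single member. Under the 3 scalings the 111 values of single members moved by at most 0.08, and the mean over probe sets moved EEF1G and EIF4B, the 2 members with more than 1, by 0.11 and 0.23. Of these values 3 crossed 0: PAIP1 (-0.04 under median centring) and EIF2AK4 (0.02 under quantile normalization and 0.03 under loess). Median centring moved the median of all measured genes to -0.06. No paired analysis was possible because each group has 1 array. With 1 array per group no left-out replicate, batch or culture effect could be examined, and differences within the technical SD of 0.34 are not resolved. That SD holds no spread between cultures, infections or arrays, so passing it does not show that a difference would repeat.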
